A study of Mus musculus with 6 samples.

Results

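Cathepsins are the proteases of the lysosome, and 10 of their genes were followed here in the soleus, a slow postural muscle of the mouse hindlimb. The members were the rows of the deposited normalized table with the symbols Ctsa, Ctsb, Ctsc, Ctsd, Ctsf, Ctsh, Ctsk, Ctsl, Ctss and Ctsz, joined by gene identifier to the raw read counts. They were 10 of 16180 genes in the normalized table and of 51912 in the count table, and each passed the filter on low counts that left 14696 genes for testing. The study asked how reduced Mustn1 changed the muscle transcriptome, and polyA RNA was sequenced from 3 heterozygous (HET) and 3 wild-type (WT) littermates. All 6 mice were on the C57BL6/N strain, 8 weeks old and labelled male. HET mice carried 1 copy of the Mustn1 KO-first allele, tm1a, a gene trap (lacZ reporter and neomycin selection cassette) that captures the transcript after exon 1. The allele was present in every cell of the body, so a change in whole muscle could come from any of its cell types.

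Cathepsins are made as inactive precursors, carried to the lysosome on mannose 6-phosphate receptors and cut to their active form in its acid interior. Most are cysteine proteases of the papain fold, while cathepsin D is an aspartic and cathepsin A a serine protease. Muscle fibers use them to break down proteins delivered by autophagy, and macrophages, osteoclasts and other cells use particular members for antigen presentation or for the digestion of matrix.

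The libraries held 26790075 to 50368796 reads on genes, with HET mouse 2 the shallowest and WT mouse 3 the deepest. The 10 cathepsin genes together held 24779 to 44454 reads, 0.0858 to 0.101% of a library. Mustn1 was at 12.6, 16.8 and 13.1 CPM (read counts divided by library size, with TMM scaling factors) in the HET mice and at 23.1, 29.0 and 30.5 in the WT mice, a log2 fold change of -0.96 (SE 0.15) with an adjusted p of 0.0452 in edgeR, lower in 3 of 3 HET mice. The sex label did not match the reads: every library held 3858 to 9154 reads of Xist, the RNA of the inactive X chromosome, and 0 to 12 reads summed over Ddx3y, Kdm5d, Uty and Eif2s3y, 4 genes of the Y chromosome. Skeletal fiber markers such as Acta1, Ckm and Myh7 summed to 82225 to 94297 CPM and overlapped between genotypes. In a principal component analysis WT mouse 3 lay between the genotypes on the first component and away from all other mice on the second.

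In WT soleus the cathepsin genes spanned a wide range of levels. Compared per kilobase (kb) of summed exon length, Ctsd was highest at 126 ± 5.34 CPM per kb (SD, n = 3), and Ctsb followed at 68.0 ± 3.52. Cathepsin D is the main aspartic protease of lysosomes, and cathepsin B cuts both within proteins and dipeptides from their ends. A middle tier held Ctsl at 19.2 ± 1.23, Ctsz at 17.2 ± 1.88, Ctsa at 15.0 ± 0.167 and Ctsf at 13.3 ± 1.17. The lowest tier held Ctsk at 4.02 ± 0.222, Ctsc at 2.60 ± 0.238, Ctsh at 2.30 ± 0.197 and Ctss at 1.54 ± 0.207. The WT values of Ctsl and Ctsz overlapped, as did those of Ctsc and Ctsh, while every other pair of neighbours in this order was separate in all 3 mice. The order within the lowest tier depended on the length used: per kb of the longest coding transcript in the reference, Ctsh (6.39 CPM per kb) and Ctsc (4.70) stood above Ctsk (4.02), and Ctsa (19.4) above Ctsz, but the same 4 genes were lowest.

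Of the 10 genes, Ctss rose in the HET mice and none fell. It was 1 of 10 called higher, against 0.143% of all genes tested (21 of 14696), by edgeR's quasi-likelihood test at an adjusted p below 0.05. The lowest HET value exceeded the highest WT value for 4 of 10 genes, Ctss, Ctsk, Ctsh and Ctsc, against 7.55% of all genes tested. The same 4 had an unadjusted p below 0.05 with a higher level in HET mice, against 5.76% of all genes. For the other 6 genes the 3 HET and 3 WT values overlapped. The median log2 fold change of the 10 genes was 0.14, beside -0.02 over all genes tested, and 8 of 10 were above 0, beside 45.6% of all genes. The median of the 10 was 0.08 without HET mouse 2, 0.09 with GC offsets and 0.22 with library size only.

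**Figure D1:**
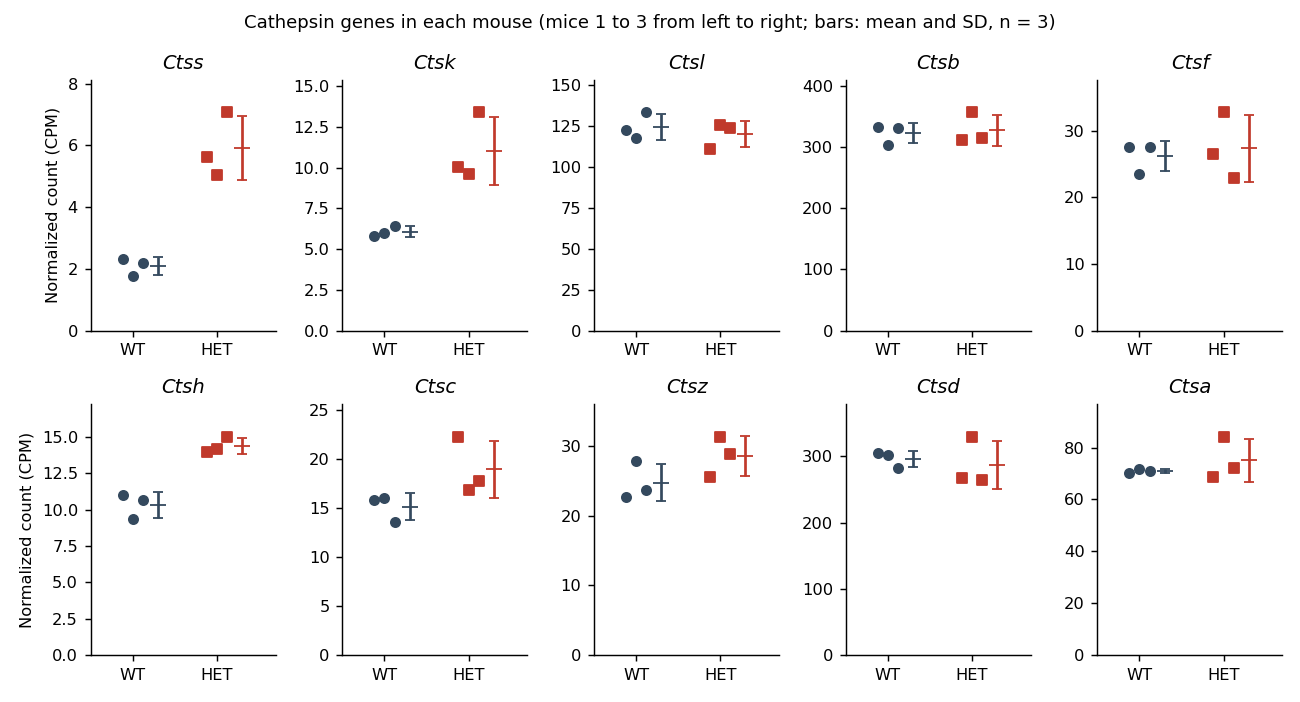
Normalized counts (CPM, vertical axis starting at 0) of the 10 cathepsin genes in each of the 3 WT (circles) and 3 HET (squares) mice, with the mean and SD beside them. Ctss, Ctsk, Ctsh and Ctsc had no overlap between genotypes, and HET mouse 2 was the highest HET mouse for Ctsl, Ctsb, Ctsf, Ctsz, Ctsd and Ctsa.

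Ctss and Ctsk are neighbours on chromosome 3, on the same strand and 17423 bases apart (GRCm38.p6: Ctsk chr3:95499256-95509362, ENSMUSG00000028111; Ctss chr3:95526786-95556403, ENSMUSG00000038642). These neighbours had the largest fold changes among the 10 genes, and the 250 bases before the start that RefSeq gives each are printed from its promoter table on GRCm38.p6. The windows are chr3:95526536-95526785 (+) for Ctss, which ends where the counted gene begins, and chr3:95498960-95499209 (+) for Ctsk, which ends 46 bases before it.
Ctss: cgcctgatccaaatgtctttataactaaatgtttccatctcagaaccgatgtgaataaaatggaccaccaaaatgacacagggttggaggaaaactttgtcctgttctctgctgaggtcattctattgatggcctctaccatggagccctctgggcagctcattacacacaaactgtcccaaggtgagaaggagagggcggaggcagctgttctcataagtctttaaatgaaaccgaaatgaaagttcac
Ctsk: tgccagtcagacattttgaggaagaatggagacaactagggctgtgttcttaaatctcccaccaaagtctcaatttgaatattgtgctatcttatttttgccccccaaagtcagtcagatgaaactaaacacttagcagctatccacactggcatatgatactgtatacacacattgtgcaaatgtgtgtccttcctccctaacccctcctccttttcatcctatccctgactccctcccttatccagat
The table had windows for 8 of the 10 genes, 9 windows in all since Ctsa has 2 starts, and none for Ctsb and Ctsh. They were searched for CACGTG, the core of the element bound by TFEB, TFE3 and MITF, which drive many lysosomal genes. CACGTG, which reads the same on both strands, was in 4 of 9 windows, beside 6.02% of all 32851 windows in the table. Ctsd held 2 copies, 245 and 98 bases before RefSeq's start, and the others began 236 bases before it in Ctsl, 79 in Ctsf and 12 at the second start of Ctsa. RefSeq's start is not that of the counted gene for these 4: the Ctsl window and the second Ctsa window lie wholly inside the counted gene, and 211 of 250 bases of the Ctsd window and 36 of the Ctsf window do. Each copy is given with up to 10 bases to either side and CACGTG in capitals.
Ctsd, copy 1: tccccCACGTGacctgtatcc
Ctsd, copy 2: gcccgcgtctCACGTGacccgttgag
Ctsl: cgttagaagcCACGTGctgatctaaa
Ctsf: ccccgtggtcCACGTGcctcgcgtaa
Ctsa: agcaaactgtCACGTGatgcag
The windows of Ctss, Ctsk, Ctsc and Ctsz held no CACGTG. Searched on both strands, TGACTCA, the AP-1 element, was in 0 of 9 windows and 4.46% of all, and GAGGAAGT, an ETS core of the kind PU.1 binds, was in 1 of 9 (Ctsc) and 2.44% of all. No match of 1 motif overlapped a match of another. The bases G and C made up 44.8% of the Ctss window and 43.2% of the Ctsk window, beside 67.2% in Ctsd and 47.2% in Ctsl.

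Ctss, which encodes cathepsin S, a cysteine endopeptidase of antigen-presenting cells that cuts the invariant chain of MHC class II, was measured at 5.64, 5.03 and 7.06 CPM in HET mice 1, 2 and 3 and at 2.31, 1.77 and 2.19 CPM in WT mice 1, 2 and 3. The lowest HET mouse was above the highest WT mouse. The log2 fold change was 1.499 (SE 0.20, 95% confidence interval 1.07 to 1.93), which is 2.83-fold, with an adjusted p of 0.0322 in edgeR and a higher level in 3 of 3 HET mice. It ranked 6th by p among the 14696 genes. These levels rest on 50 to 310 reads per library, and counting alone gives a coefficient of variation of 12.1% over the WT mice, close to the 13.4% observed, so the spread between WT mice was near that of counting. The call was not made with limma-voom (adjusted p = 0.067) or with HET mouse 1 (0.088 in edgeR), HET mouse 3 (0.129), WT mouse 1 (0.066) or WT mouse 2 (0.108) left out, and it was made without HET mouse 2 (0.031) or WT mouse 3 (0.024). The log2 fold change stayed between 1.35 and 1.61 when any 1 mouse was left out.

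The summed levels of macrophage, fibroblast and tenocyte markers did not overlap between genotypes either, and each was higher in HET mice. In whole muscle, more cells of a type and more RNA per cell cannot be told apart. Of 12 macrophage markers 5 were called higher in HET mice (Adgre1, Csf1r, C1qa, C1qb and Lyz2), 11 were above 0 and the median log2 fold change was 1.34. Adgre1, which encodes F4/80, was at 2.91 to 4.49 CPM in HET and 0.970 to 1.45 CPM in WT mice, and none of the 12 was at 0 in any mouse. Their sum was 113, 93.0 and 132 CPM in the HET mice and 54.1, 63.0 and 60.3 CPM in the WT mice, without overlap.

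Whether Ctss was higher relative to these markers depended on which were summed. Per 100 CPM of the 12 macrophage markers, Ctss was at 4.97, 5.41 and 5.34 CPM in HET mice and at 4.27, 2.82 and 3.63 CPM in WT mice. The genotypes did not overlap, and the ratio of means was 1.47. That sum is weighted by Mrc1, 36.02% of it in WT mice, whose genotypes overlapped (log2 fold change 0.33). Without Mrc1, a choice made after seeing the data, Ctss was at 6.66, 6.58 and 7.17 CPM per 100 CPM of the other 11 markers in HET and at 7.56, 4.45 and 5.03 CPM in WT mice, which overlapped (ratio of means 1.20). The log2 fold change of Ctss was below those of Adgre1 (1.61) and Fcgr1 (2.14) and above those of the other macrophage markers. The latter ran from Mertk (-0.10) and Mrc1 (0.33) up to C1qb (1.43) and C1qa (1.48). No test was run on any of the ratios. Against Cd74, the invariant chain that cathepsin S cuts, the genotypes overlapped: Ctss was at 20.4, 13.6 and 31.9 CPM per 100 CPM of Cd74 in HET mice and at 22.04, 13.2 and 23.5 in WT mice. Cd74 itself was at 27.6, 37.1 and 22.1 CPM in HET and 10.5, 13.4 and 9.30 CPM in WT mice (log2 fold change 1.39, SE 0.20, edgeR adjusted p = 0.0452, higher in 3 of 3 HET mice). The part of macrophage content in the rise of Ctss was not tested.

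**Figure D2:**
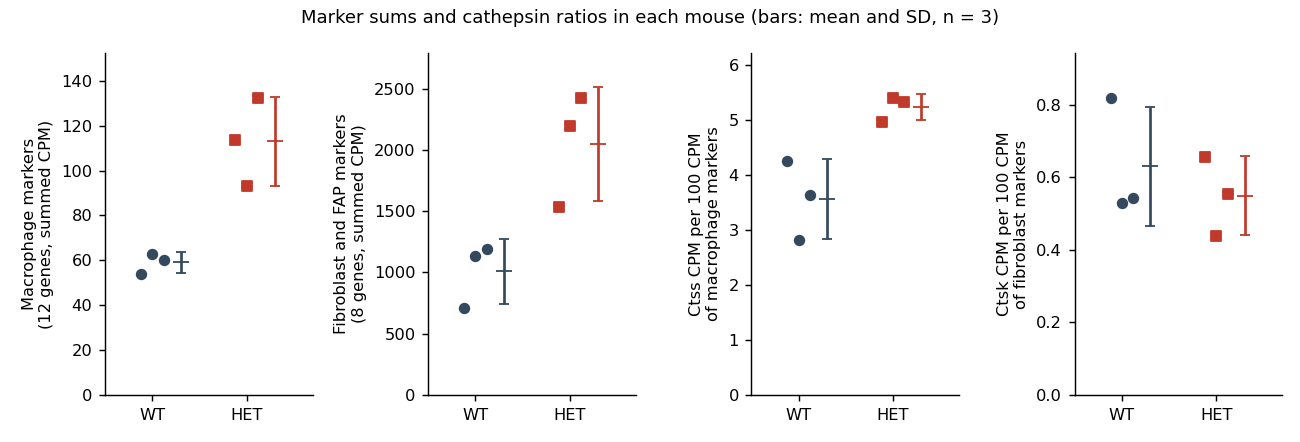
Summed CPM of 12 macrophage markers and of 8 fibroblast and fibro-adipogenic progenitor (FAP) markers, and CPM of Ctss and Ctsk per 100 CPM of those markers, in each WT (circles) and HET (squares) mouse with mean and SD. Both sums and the Ctss ratio had no overlap between genotypes, but the Ctss ratio overlapped once Mrc1 was left out of the sum, and the Ctsk ratio to fibroblast markers overlapped.

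The genes whose centred log2 CPM lay nearest to Ctss over the 6 mice were Kcnab2 (root mean square difference 0.12), C1qa (0.18) and Dok2 (0.19). These profiles include the difference between genotypes, so fold changes close to that of Ctss follow from the search itself. C1qa, a chain of complement C1q made by macrophages, had a log2 fold change of 1.48 (edgeR adjusted p = 0.0130, higher in 3 of 3 HET mice). Kcnab2, a potassium channel subunit, and Dok2, an adaptor protein of blood cells, had log2 fold changes of 1.55 and 1.56 and did not pass the edgeR test (adjusted p = 0.108 and 0.0785, higher in 3 of 3 HET mice each). The nearest gene among the other cathepsins was Ctsk, at a distance of 0.34.

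Ctsk, which encodes cathepsin K, the collagen-cutting protease of osteoclasts that fibroblasts can also make, was at 10.04, 9.61 and 13.4 CPM in the HET mice and 5.79, 5.99 and 6.44 CPM in the WT mice. The genotypes did not overlap, and HET mouse 3 was the highest, as it was for Ctss. The log2 fold change was 0.86 (SE 0.16, 95% confidence interval 0.51 to 1.21), with an adjusted p of 0.0785 in edgeR, rank 41 of all genes. It therefore missed the threshold, although the DESeq2 Wald test put it past (adjusted p = 0.00049, higher in 3 of 3 HET mice).

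Relative to the marker sums used here, Ctsk was not higher in HET mice. Per 100 CPM of macrophage markers it was at 8.85, 10.3 and 10.1 CPM in HET and 10.7, 9.52 and 10.7 CPM in WT mice, and per 100 CPM of 8 fibroblast and FAP markers at 0.656, 0.438 and 0.553 CPM against 0.819, 0.529 and 0.541 CPM. Both ratios overlapped. Without Mrc1 in the macrophage sum the genotypes separated with HET mice lower, at 11.9, 12.6 and 13.6 CPM against 18.9, 15.04 and 14.8 CPM in WT mice. The fibroblast sum is weighted by Col1a1 and Col1a2, with WT means of 267 and 358 CPM out of 1010 CPM. These collagens had the largest log2 fold changes of the 8 (1.23 and 1.16). That of Ctsk (0.86) was below those of Fbn1 (0.93) and Pi16 (1.06) too. It was above those of Pdgfra, Lum, Dcn and Dpt (0.56 to 0.60). The ratio of Ctsk to a sum without these collagens was not computed. The fibroblast markers, such as Pdgfra, Dcn and Pi16, were all above 0 (median log2 fold change 0.76, 1 of 8 called: Pi16), and their sum was 1530.3, 2194 and 2425 CPM in HET and 707, 1133 and 1189.8 CPM in WT mice. The 6 tenocyte markers were above 0 too, with 0 called (median 1.09). Of 6 osteoclast markers 4 could be tested and 0 were called, and their summed CPM overlapped (ratio of means 1.32). That sum is weighted by Calcr, with a WT mean of 2.95 CPM out of 5.20 CPM and a log2 fold change of -0.47. The median of the tested osteoclast markers, -0.40, became 0.47 when 10 reads were required in every library. Acp5 was at 2.14, 5.44 and 3.62 CPM in HET and 0.836, 0.461 and 2.71 CPM in WT mice (log2 fold change 1.38, edgeR adjusted p = 0.691, 2 of 3 HET mice above all WT mice), and Mmp9, too low to test, had 6, 11 and 22 reads in HET and 0, 4 and 2 reads in WT mice. Ctss was at 56.1, 52.3 and 52.7 CPM per 100 CPM of Ctsk in HET mice and at 39.9, 29.6 and 34.0 in WT mice, so the balance of these neighbouring genes also differed without overlap.

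Ctsh and Ctsc are exopeptidases, and both were higher in every HET mouse than in any WT mouse without passing the adjusted threshold. Ctsh, which encodes the aminopeptidase cathepsin H (chr9:90054152-90076089), was at 14.0, 14.2 and 15.0 CPM in HET and 11.004, 9.33 and 10.7 CPM in the WT mice. The log2 fold change of Ctsh was 0.48 (SE 0.12, 95% confidence interval 0.22 to 0.74, edgeR adjusted p = 0.188), and the DESeq2 adjusted p was 0.0325. Its HET mice lay close together, with a coefficient of variation of 3.88%, less than the 4.49% that counting alone gives.

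Ctsc encodes dipeptidyl peptidase I, which activates the granule proteases of mast cells, neutrophils and cytotoxic lymphocytes (chr7:88278085-88310888). It was at 22.3, 16.8 and 17.8 CPM in HET and 15.8, 16.03 and 13.5 CPM in WT mice, so that HET mouse 1 was the highest and the gap between HET mouse 2 and WT mouse 2 was small. The log2 fold change was 0.33 (SE 0.13, 95% confidence interval 0.04 to 0.63, edgeR adjusted p = 0.564). Of 4 mast cell markers 0 were called and 3 had no overlap between genotypes (Cma1, Mcpt4 and Cpa3, at 0 to 66 reads per library), against 7.55% of all genes tested. Kit, the remaining marker, overlapped (log2 fold change -0.07). The mast cell sum was 4.75, 5.18 and 6.77 CPM in HET and 2.78, 3.90 and 2.43 CPM in WT mice. The part of mast cells in the level of Ctsc was not tested. Lymphocyte and neutrophil markers were too low to test, 0 of 4 and 0 of 5 passing the filter.

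Ctsz, the carboxypeptidase cathepsin Z, was at 25.5, 31.4 and 29.0 CPM in HET and 22.8, 27.9 and 23.7 CPM in WT mice. WT mouse 2 was above HET mouse 1, and the log2 fold change of 0.21 (SE 0.12, 95% confidence interval -0.05 to 0.47) was not called (edgeR adjusted p = 0.782, 14696 genes).

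**Figure D3:**
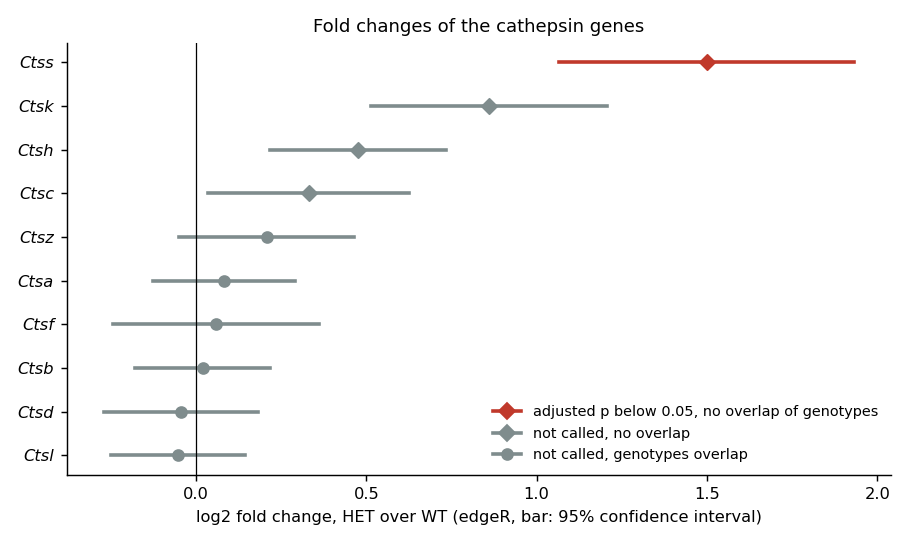
Log2 fold change of each cathepsin gene, HET over WT, from edgeR with its 95% confidence interval (horizontal axis); diamonds mark genes whose genotypes did not overlap and red marks an adjusted p below 0.05. Ctss (1.499), Ctsk (0.86), Ctsh (0.48) and Ctsc (0.33) have intervals above 0, and the other 6 intervals include 0.

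The most abundant cathepsins did not separate the genotypes. Ctsd was at 267, 329.6 and 265 CPM in HET and 305, 302 and 282 CPM in WT mice, with a log2 fold change of -0.04 (95% confidence interval -0.27 to 0.18). Ctsb was at 311, 356 and 314 CPM against 333, 303 and 331 CPM, a log2 fold change of 0.02 (-0.18 to 0.22). Ctsl, the cathepsin known to rise in wasting muscle, was at 111, 126 and 123 CPM in HET and 123, 117 and 133 CPM in WT mice (-0.05, -0.25 to 0.15). For these genes the upper end of the interval is a rise of 1.13-fold for Ctsd, 1.16-fold for Ctsb and 1.11-fold for Ctsl, so at this depth a change of the size of that of Ctss lies outside their intervals. In each, HET mouse 2 was the highest HET mouse.

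Ctsa and Ctsf completed the set. Ctsa, the carboxypeptidase that also protects the lysosomal enzymes Neu1 and Glb1, was at 68.7, 84.2 and 72.2 CPM in HET and 70.1, 71.7 and 70.8 CPM in WT mice (log2 fold change 0.08, 95% confidence interval -0.13 to 0.29). The WT mice lay within a coefficient of variation of 1.11%, and HET mouse 2 stood above the rest. Ctsf, a cysteine endopeptidase that can also cut the invariant chain, was at 26.5, 32.8 and 22.9 CPM against 27.6, 23.5 and 27.5 CPM (0.06, -0.24 to 0.36). Among the partners of cathepsin A, the log2 fold change was -0.07 for Neu1 and 0.05 for Glb1.

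**Figure D4:**
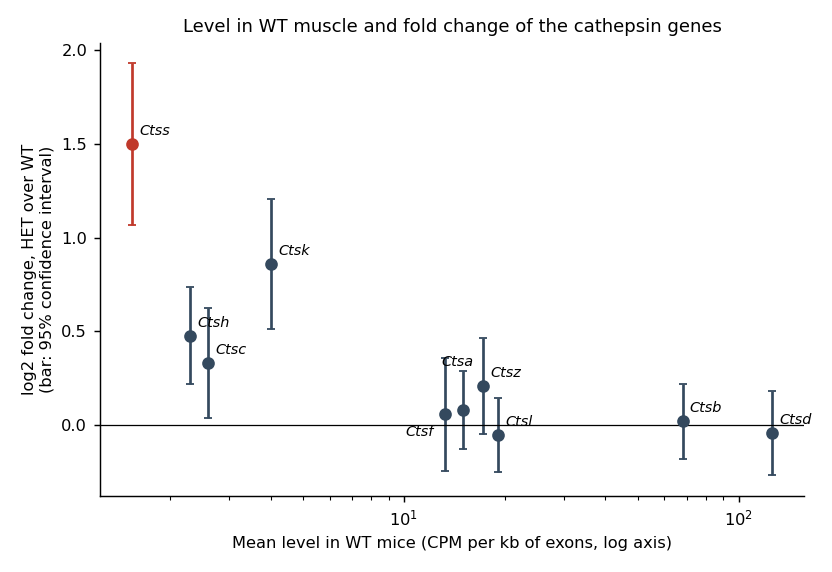
Mean level in the 3 WT mice (CPM per kb of exons, log axis) against the log2 fold change with its 95% confidence interval for the 10 cathepsin genes. The 4 genes under 5 CPM per kb (Ctss, Ctsh, Ctsc and Ctsk) are those whose genotypes did not overlap, and the 6 above 10 CPM per kb lie between -0.05 and 0.21.

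The summed cathepsin level did not separate the genotypes. The 10 genes together reached 260, 307 and 265 CPM per kb in HET and 274, 267 and 266 CPM per kb in WT mice, with a ratio of means of 1.03. The share of each gene in that sum moved for 3 of them without overlap. Ctss made up 1.59% ± 0.377 (SD, n = 3) of the sum in HET and 0.571% ± 0.0718 in WT mice, Ctsk 2.66% ± 0.641 and 1.49% ± 0.103, and Ctsh 1.16% ± 0.121 and 0.853% ± 0.0663. The share of Ctsd was 44.0% ± 1.61 in HET and 46.8% ± 1.59 in WT mice, which overlapped, as did those of the remaining genes. As shares of reads, without the division by length, the same 3 genes had no overlap.

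The other lists of lysosomal genes gave no call apart from Cd74, the invariant chain of MHC class II. Among 13 other cathepsins, 6 had no read in any library and only Ctso, at 11.1 to 13.7 CPM over the 6 mice, passed the filter (log2 fold change -0.02). Of 9 cathepsin inhibitors 5 were tested and 0 called, from Cst6 (-0.07) to Ctla2b (0.15). Cystatin C (Cst3) was at 0.09 (edgeR adjusted p = 0.931, 2 of 3 HET mice above the WT mean) and cystatin B (Cstb) at 0.07 (0.958, 3 of 3).

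Of 12 genes listed for cathepsin sorting and maturation and the lysosomal membrane, 1 was called, Cd74. The other 11 lay between -0.10 (Scarb2) and 0.07 (Sort1), with legumain (Lgmn), which cuts cathepsin precursors, at -0.05. Of 32 other lysosomal hydrolases and their cofactors 0 were called, 24 were above 0, beside 45.6% of all genes tested, and the median was 0.08. They ran from -0.21 for Ids to 0.39 for Scpep1, a carboxypeptidase of the family of cathepsin A. Every HET value was above every WT value for 5 of 32, against 7.55% of all genes tested, and below for 1, against 884 of 14696 genes. Like Ctsc, 4 of 32 had an unadjusted p below 0.05 in edgeR with a higher level in HET mice, against 5.76% of all genes. Of 16 subunits and accessory proteins of the vacuolar ATPase, which acidifies the lysosome, 15 were tested and 0 called, with a median of -0.06 and a range of -0.17 (Atp6v1g1) to 0.08 (Atp6ap2). Of the lysosomal transcription factors 3 of 4 were tested and 0 called, at -0.10 for Mitf, 0.14 for Tfe3 and -0.01 for Tfeb.

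**Figure D5:**
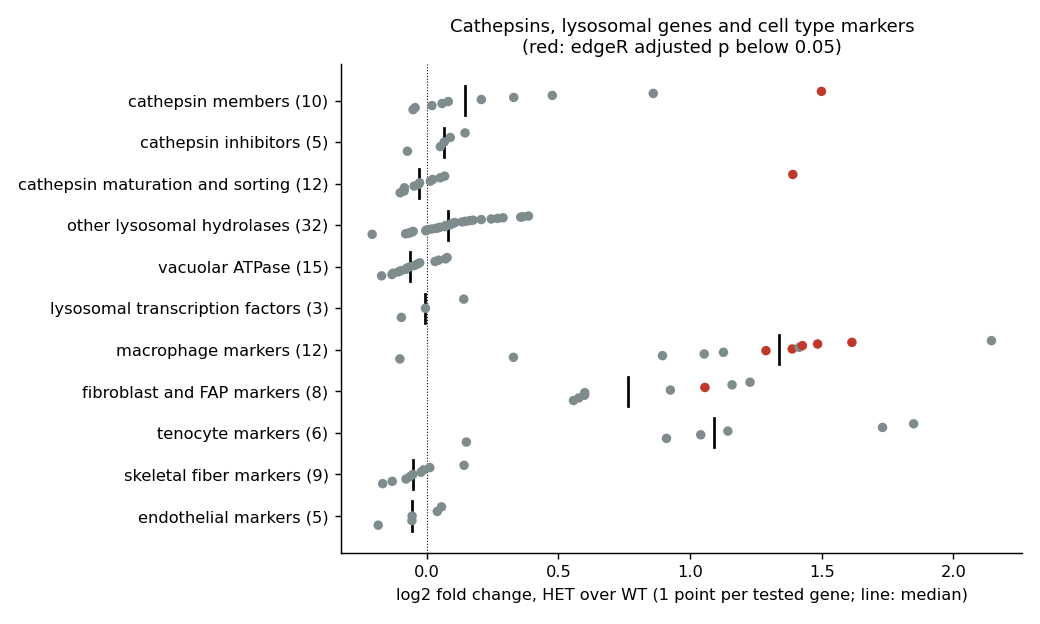
Log2 fold change, HET over WT, of every tested gene (points) of the cathepsin set, 5 lists of lysosomal genes and 5 lists of cell type markers, with the median of each list as a black line; red points passed an edgeR adjusted p below 0.05. Ctss and Cd74 lie among the values of the macrophage markers (median 1.34), while vacuolar ATPase subunits lie between -0.17 and 0.08 and hydrolases between -0.21 and 0.39.

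Endothelial and skeletal fiber markers had 0 of 5 and 0 of 9 genes called, with median log2 fold changes of -0.06 and -0.05. Smooth muscle and adipocyte markers had 0 of 4 called each, with medians of 0.10 and 1.07, and their summed CPM overlapped between genotypes. For adipocyte markers the overlap came from WT mouse 3, at 42.0 CPM beside 6.62 and 7.38 CPM in WT mice 1 and 2, and the median was 2.72 without WT mouse 3, 0.66 without HET mouse 2 and 0.70 without WT mouse 1. Some cathepsin exons overlap those of other genes. On the opposite strand, Ctsl shares 1742 bases with Gm47123 (0 to 1 reads per library) and Ctsb 774 bases with Fdft1. Also on the opposite strand, Ctsa shares 495 bases with Pltp and 324 with Neurl2, and Ctsz 10 with Nelfcd. On the same strand, Ctsd shares 808 bases with Gm49369 and Ctsl 395 with the pseudogene Gm49230, both with 0 reads in all libraries. Reads from such a shared stretch on 1 strand cannot be given to either gene with certainty, and Ctss and Ctsk had no such overlap.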

How the data were processed

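Stranded libraries were made from polyA RNA of the soleus muscles of 3 HET and 3 WT mice. Per the submitters' processing notes and the file headers, the authors aligned reads to GRCm38.p6 with STAR 2.7.3a and counted them by strand with featureCounts 2.0.3; the deposited file holds whole-number counts per gene and the summed exon length. A further deposited table holds counts divided by DESeq2 size factors (normalized signal) with gene symbols, used here only to find the members. A table of the authors' own comparison (fold changes and p-values) was not used, and 0 sample columns were unmatched.

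Counts were tested in edgeR 4.0.16 (R 4.3.3; TMM factors, filterByExpr with a minimum count of 10, robust quasi-likelihood fit with genotype as the only term, Benjamini-Hochberg adjustment over all 14696 genes, threshold 0.05). CPM values used the same factors. DESeq2 1.42.0, limma-voom (limma 3.58.1), other scalings and filters, GC offsets, a replicate block and the omission of each mouse were alternatives, and the division by the longest coding transcript and the macrophage sum without Mrc1 were added after seeing the data. In a simulation of the HET and WT comparison on 14487 genes, 109 of 200 changed genes were recovered (77 of 100 at 2-fold, 32 of 100 at 1.5-fold) with 2 false calls. It drew counts with dispersions set by the level of a gene alone, with no outlying mouse. It therefore does not give the recovery or the false calls in the real libraries. The members and gene lists were chosen with earlier results of these data known. Named were all 10 members, the called genes and the ends of each lysosomal list, Cst3, Cstb, Cd74, Neu1, Glb1, the 3 genes nearest in profile to a called member, and Mustn1, Xist and 4 Y genes as checks of the labels; Lgmn, Sort1 and the marker genes given by name were chosen after their values were seen. The p-values set the difference between genotypes against the spread between mice of a genotype, which the fits estimate for each gene partly from all genes. Intervals of counting error cover sampling of reads only.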

Additional observations from a re-analysis of the deposited data

How the results depend on the processing

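Over 17 alternatives, 149 of 170 values for the single cathepsin genes kept their direction and their side of the threshold. Calls over all genes (21 higher and 1 lower in HET) and among the cathepsins (1 higher) moved to 386, 18 and 2 with no filter, 218, 8 and 3 with the DESeq2 Wald test, 3, 0 and 0 with limma-voom, 114, 2 and 2 with the replicate block, and 93, 2 and 2 with GC offsets and the replicate block. The fit without robust dispersions gave 6 higher and 0 lower, and GC offsets alone 7 higher. Leaving out 1 mouse gave 0 to 77 genes higher, 0 to 6 lower, and 0 to 1 cathepsin higher. Calls fell to 0 without HET mouse 1, HET mouse 3, WT mouse 1 or WT mouse 2, with 1242, 768, 799 and 1200 genes at an unadjusted p below 0.05 in edgeR, and reached 77 without WT mouse 3. The cause was not tested. Only genes near 0 changed sign: Ctsd to 0.030 and Ctsl to 0.024 with library size only, Ctsf to -0.011 with GC offsets and to -0.015 with GC offsets and the replicate block. With single mice left out, log2 fold changes ran from -0.141 to 0.015 for Ctsd, -0.033 to 0.054 for Ctsb, -0.093 to 0.0013 for Ctsl and -0.076 to 0.178 for Ctsf. With the replicate block Ctsk was called (log2 fold change 0.85, adjusted p = 0.043). The deviations of same-numbered mice had correlations of 0.20, -0.01 and -0.03, and those of differently numbered mice ran from -0.14 to 0.13. The mice numbered 1 thus had the highest correlation of all pairs, and the other same-numbered pairs were near 0. The labels tie the number to no litter or day. With library size only, the median of all genes moved from -0.02 to 0.06. Ctss, at 50 reads in its lowest library, is the cathepsin whose level depth limits most.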

Other observations

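HET mouse 2 was the highest of the HET mice for each of the 6 cathepsin genes with the highest WT level per kb, and for 22 of 32 other lysosomal hydrolases (68.8%), beside 38.5% of all genes tested. For the macrophage markers it was the lowest HET mouse in 8 of 12, while HET mouse 3 was the highest in 9 of 12. Its library was also the shallowest of the 6. The hydrolases' summed level was 758, 884 and 779 CPM in HET mice 1, 2 and 3 and 768, 749 and 786 CPM in the WT mice.

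The balance of cysteine cathepsins and their inhibitors did not separate the genotypes. The 8 cysteine cathepsins stood at 0.961, 0.890 and 1.13 times the summed level of Cst3 and Cstb, both per kb, in the HET mice and at 0.976, 0.958 and 0.943 times in the WT mice, which overlapped. The summed level of the vacuolar ATPase genes, in contrast, was 705, 715 and 698 CPM in HET and 730.4, 737 and 723 CPM in WT mice, lower in each HET mouse with a ratio of means of 0.967, although 0 of its genes were called in edgeR, with 0 at an unadjusted p below 0.05, and the median of its fold changes changed sign, to 0.01, with library size only.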
